A study of Mus musculus with 33 samples.

Results

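Potassium channel genes were read across the frontal cortex of mice that slept freely, lost sleep or recovered from sleep loss, with and without MEF2C, an activity-regulated transcription factor, in forebrain excitatory neurons. The genes were taken by symbol: every row of the expression table whose name begins with Kcn and follows the form of a channel gene was collected, which gave 94 of 21565 genes, and none of these was an antisense name. The 74 genes with a mean of at least 1 CPM (reads counted for the gene, scaled to a common library total) over the 33 libraries are described. The choice used the symbol and the mean level, not a difference between groups. Kcnj13 with a mean of 1.31 CPM and Kcne1l with 1.95 CPM lay closest above the minimum, and Kcnj14 with 0.978 CPM lay closest below it.

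Each library was made from polyadenylated RNA of the frontal cortex of an adult male mouse on a C57BL/6J background, 8 to 19 weeks old, taken at zeitgeber time 6, which is 6 hr into the usual light phase. Mice slept ad libitum (CS), were kept awake for 6 hr on a slow treadmill (SD), or were kept awake for 4 hr and then slept for 2 hr (RS), and all of them had been in constant dark for 36 hr. Wild-type mice (WT) gave 6 CS, 7 SD and 7 RS libraries. Mef2c f/f mice, whose Mef2c exon 11 is flanked by loxP sites and which serve as the controls of the knockout, gave 4 CS and 3 SD libraries. Mef2c-cKO Camk2a-Cre mice, called Mef2c-cKO from here, gave 3 CS and 3 SD libraries; they carry the same loxP sites and a Camk2a-Cre transgene, whose promoter acts in excitatory neurons of the forebrain. The study also found a single recombined Mef2c allele in the tails of some offspring of fathers with this transgene, which it relates to Cre acting in sperm cells, so that Mef2c may be reduced in other cells too. The labels do not identify the libraries of such mice. Values are rescaled CPM, the deposited CPM divided by one factor per library that brings the typical gene to the same level everywhere. A gene was called when its log2 change was at least 0.3 in size and its Benjamini-Hochberg adjusted p, computed over all genes tested with limma, was at most 0.05. The labels do not state how the mice were caged or which libraries were made together, so the p-values measure the spread between these libraries.

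Potassium channels let potassium leave or enter a cell and so set its resting potential, end its action potentials and limit its firing rate. Voltage-gated channels are built of 4 pore subunits, which can be joined by silent subunits that make no channel alone and by auxiliary subunits that change gating and transport to the membrane. Inward rectifiers and K2P (tandem pore domain) channels hold the resting potential, some inward rectifiers being opened by G proteins, and a further class opens with intracellular calcium or sodium. In the cortex the slow and fast oscillations of sleep and waking depend on these currents.

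Total reads per library ran from 18935045 to 249046089, and 3 reads corresponded to at most 0.158 CPM as deposited. Rescaling factors ran from 0.716 to 1.14, and with CPM as deposited the median log2 change of all genes from CS to SD in WT was 0.30 against 0.04 after rescaling. Across genes, the 72 pairs of replicates had rank correlations (Spearman) between 0.971 and 0.995. A few libraries stood apart. WT_CS replicate 02 had the lowest rescaling factor, and Mef2c-cKO CS replicate 08 had a summed level of 6 astrocyte markers of 2179 rescaled CPM, where the other libraries had 458 to 1015, and of 6 microglia markers of 428. Markers of striatum, olfactory bulb and choroid plexus summed to 546 in Mef2c-cKO CS replicate 05, where the other libraries had at most 318. The summed levels of 6 excitatory neuron markers such as Slc17a7 and Camk2a ran from 1348 to 2540 rescaled CPM over the libraries, and none of these markers was at 0. Mef2c itself, counted over the whole gene, differed by 0.27 (CS) and 0.05 (SD) on the log2 scale between Mef2c-cKO and Mef2c f/f and was not called; a sum over the gene does not read the loss of 1 exon in 1 kind of cell.

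The 74 genes comprised 28 pore subunits of voltage-gated channels, 9 silent subunits, 8 auxiliary subunits, 11 inward rectifiers, 9 K2P channels and 9 subunits of calcium- or sodium-activated channels. Of these, 54 had a mean of at least 10 CPM and 24 of at least 100 CPM. Kcnip4, which encodes an auxiliary protein (KChIP4) of the transient A-type channels, had a mean of 4285 CPM, rank 2 of all genes in the table. Scaled by the annotated transcript length, it also had the highest value of the Kcn genes, 1856 rescaled CPM per kb. Kcnd2, the A-type pore subunit it binds, had 279, and Kcnq5, a pore subunit of the M current, had 175. Kcnh7, Kcnma1 and Kcnj3 followed with 102, 94.9 and 79.3 rescaled CPM per kb. The genomic span, from the first to the last annotated base, reached 1135 kb in Kcnip4, and 23 of the 74 genes spanned at least 100 kb. Over the 74 genes mean CPM rose with span (Spearman rho 0.499). Other annotated transcripts overlap Kcnip4 on its strand, and their part in its reads was not tested. Of the K2P genes, Kcnk1 (TWIK1) had the highest mean CPM over all libraries. It had 69.4, 77.0 and 93.8 rescaled CPM (lowest, median, highest) in WT CS and 77.3, 88.3 and 94.6 in WT SD, which overlapped. Kcnk9 was at a similar level in WT, with 59.1 to 92.3 over the WT libraries. It was at 13.6 to 28.3 in Mef2c f/f and 10.4 to 15.6 in Mef2c-cKO libraries, a difference from WT that was not tested.

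From CS to SD in WT mice, 33 of 72 Kcn genes tested were called (45.8%), against 45.1% of all 12913 genes tested, a similar share. Kcne1l and Kcnj13 did not reach 1 CPM in every library of a WT group and were not tested there. After sleep loss 13 had risen and 20 had fallen, where 24.6% of all genes were called higher and 20.5% lower. The median log2 change of the 72 genes was 0.05, beside 0.04 for all genes. By class, 7 rose and 10 fell of 28 pore subunits of voltage-gated channels, 1 rose and 4 fell of 9 calcium- or sodium-activated genes, 2 rose and 1 fell of 9 silent subunits, and 1 rose and 2 fell of both the 10 inward rectifiers and the 7 auxiliary subunits tested. Of 9 K2P genes 1 rose and 1 fell. The SD and CS libraries did not overlap in 15 of the genes (20.8%), and in 15.1% of all genes. With CPM as deposited, 30 were called higher and 13 lower, and with quantile normalization 16 and 15, so the split between rises and falls depends on the scaling.

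Kcnip4 (chr5:48389502-49524907, minus strand, in the GENCODE M21 annotation of GRCm38, which gives all gene positions here) was the gene with the largest fall. Its lowest, median and highest values were 6522, 7577 and 10870 rescaled CPM in CS and 2654, 3401 and 4148 in SD, a log2 change of −1.20 (standard error 0.14; limma, adjusted p = 0.000242). No SD library reached the lowest CS library, and the highest CS value was that of replicate 02. With quantile normalization the change was −0.19 and was not called. That setting gives each rank the same value in every library, so for a gene of rank 2 it says little about the size of a change.

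Kcnt2 (chr1:140246158-140612067, plus strand), which encodes a sodium-activated channel that is also sensitive to ATP, went from 386, 510 and 821 (lowest, median, highest) in CS to 197, 259 and 312 in SD, a log2 change of −1.05 (standard error 0.15, adjusted p = 0.000528 in limma). Kcnh7 (ERG3; chr2:62693414-63184287, minus strand), a pore subunit of the ether-a-go-go-related channels, went from 1695, 2026 and 3574 to 868, 1017 and 1278, a log2 change of −1.04 (standard error 0.16). Kcnj3 (GIRK1), a subunit of the G protein-gated inward rectifiers, went from 525, 585 and 1030 to 263, 313 and 368, also a change of −1.04 (standard error 0.14). In none of these 3 genes did the groups overlap, and the highest CS value was again that of replicate 02 in each.

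Among the other genes that fell, Kcnmb2, a beta subunit of the BK channel that makes it inactivate, changed by −1.02, and Kcnma1, the BK pore subunit itself, by −0.78. Kcnma1 had 1426, 1677 and 1847 rescaled CPM (lowest, median, highest) in CS and 712, 929 and 1374 in SD. The M-current subunits Kcnq5 and Kcnq3 changed by −0.77 and −0.63. Kcnd2 went from 1775, 1932 and 3353 to 919, 1329 and 1665, a change of −0.71. In Kcnmb2, Kcnma1, Kcnq5 and Kcnd2 the groups did not overlap, and in Kcnq3 they did. The delayed rectifier subunit Kcnb2 (−0.75), the fast-gating Kcnc2 (Kv3.2, −0.74) and the ether-a-go-go channel Kcnh5 (−0.69) fell without overlap of the groups as well. Smaller falls were called in Kcnh8, Kcnj6, Kcnab1, Kcnk10, Kcnh1, Kcnn2 and Kcna4, from −0.46 to −0.32. Kcnv1, a silent subunit, fell by 0.67 on the log2 scale with a gene that spans 8.64 kb.

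The largest rise was that of Kcng1 (chr2:168260117-168281736, minus strand), a silent subunit that joins Kv2 channels. It had 3.03, 5.08 and 7.03 rescaled CPM (lowest, median, highest) in CS and 6.12, 11.4 and 12.3 in SD, a log2 change of 0.91 (standard error 0.20, adjusted p = 0.00363 in limma). Kcna5 (Kv1.5), a delayed rectifier subunit also found in vessels and glia, had 2.43, 3.97 and 5.38 in CS and 4.31, 6.13 and 10.9 in SD, a change of 0.83 (standard error 0.22, adjusted p = 0.00904). Kcnh3, a neuronal ether-a-go-go-like channel, went from 22.9, 56.4 and 95.3 to 61.8, 93.7 and 107, a change of 0.73 (standard error 0.27, adjusted p = 0.0361), though with each library left out in turn it was called in 5 of 13 fits. In each of the 3 genes the lower part of the SD range overlapped the upper part of the CS range. The groups did not overlap in 3 other genes that rose, the silent subunit Kcnf1 (0.67), the strong inward rectifier Kcnj12 (0.64) and the acid-sensitive leak channel Kcnk3 (0.42). Rises were also called in Kcnh2 (ERG1, 0.64), Kcnn1 (SK1, 0.63), Kcnip2 (0.50), Kcna3 (0.41) and Kcnc1 (0.34), among others. With each library left out in turn, Kcna3 was called in 5 of 13 fits and Kcnc1 in 4. Some subunits of the same kind of channel changed in opposite directions: Kcnc1 rose while Kcnc2 fell, and Kcnip2 rose while Kcnip4 fell. These signs were the same with CPM as deposited and with quantile normalization, but Kcnc1 was below 0 (−0.0068) after the trends on GC content, length and span described next were removed.

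**Figure D1:**
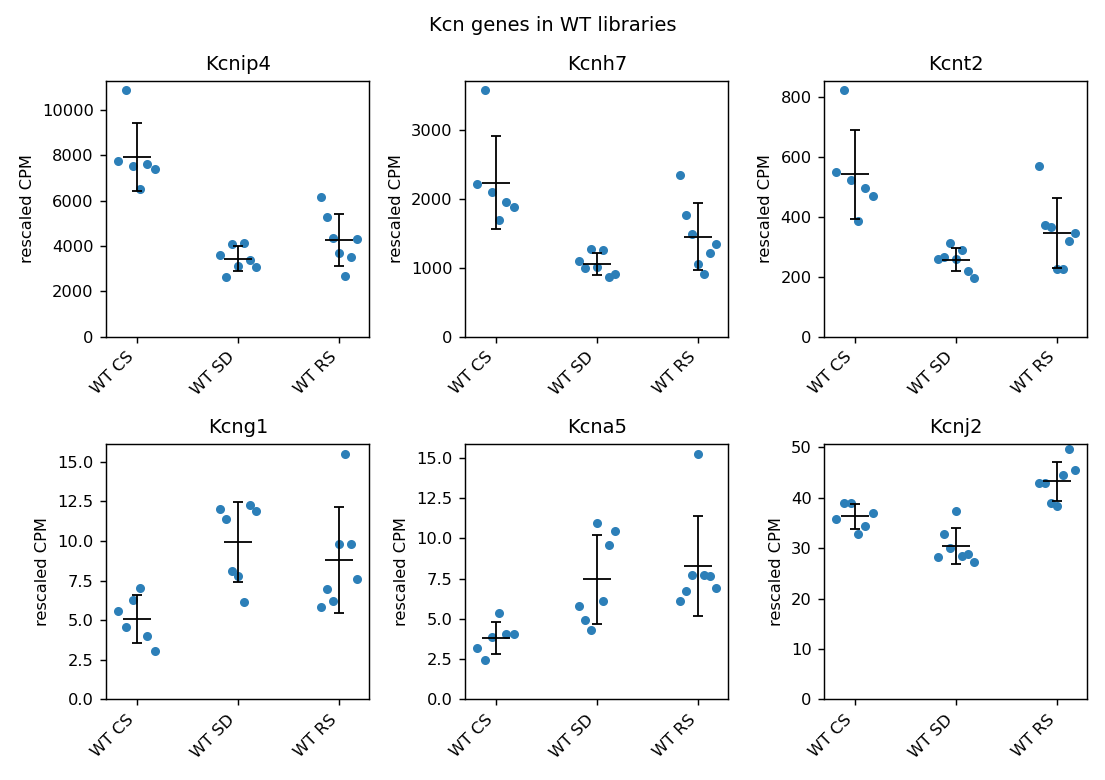
Rescaled CPM (linear axes from 0) of 6 Kcn genes in every WT library; points are libraries, horizontal bars are group means and whiskers are 1 SD (6 CS, 7 SD and 7 RS). Kcnip4, Kcnh7 and Kcnt2 are lower in every SD library than in any CS library, Kcng1 and Kcna5 have higher means in SD and RS than in CS, with some overlap except for Kcna5 in RS, and Kcnj2 is lower in SD than in RS without overlap.

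The genes that fell and those that rose differed in structure. Of the 20 that fell, 18 span at least 100 kb (median 310 kb) and their transcripts have a median GC content of 44.6%. Of the 13 that rose, 0 span 100 kb (median 21.6 kb) and their median GC content is 57.4%. Of the 23 Kcn genes of at least 100 kb, 18 fell, 0 rose and the median log2 change was −0.63. The same direction was seen in long genes in general, though less far: of all 2164 genes tested that span at least 100 kb, 52.6% were called lower and 3.65% higher, with a median of −0.35. Of the 49 shorter Kcn genes 13 rose and 2 fell, where 29.3% of all shorter genes rose and 13.2% fell. Over the 72 Kcn genes the log2 change had a Spearman rho of 0.787 with GC content and of −0.636 with span, and over all genes 0.721 and −0.556; these genes share their libraries, and GC content and span are themselves related (rho −0.469 over the 72). When a smooth trend on GC content and transcript length was removed from each library, 20 Kcn genes were called (3 higher, 17 lower), and when genomic span was removed with them, 10 (3 higher, 7 lower). Calls over all genes fell too, from 5826 of 12913 to 2700 of 12442 (1702 higher, 998 lower) after the first step. With span removed they were 1834 of 12442 (1211 higher, 623 lower). Of the 33 calls, 15 held after the first step, 16 were lost and 2 turned in direction. After the second step 4 held, Kcnv1 (−0.46), Kcnj3 (−0.54), Kcnh5 (−0.32) and Kcnj12 (0.43), while 23 were lost and 6 turned, and Kcnip4 changed by −0.12. In bulk tissue, fewer cells of a type and less RNA per cell cannot be told apart.

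**Figure D2:**
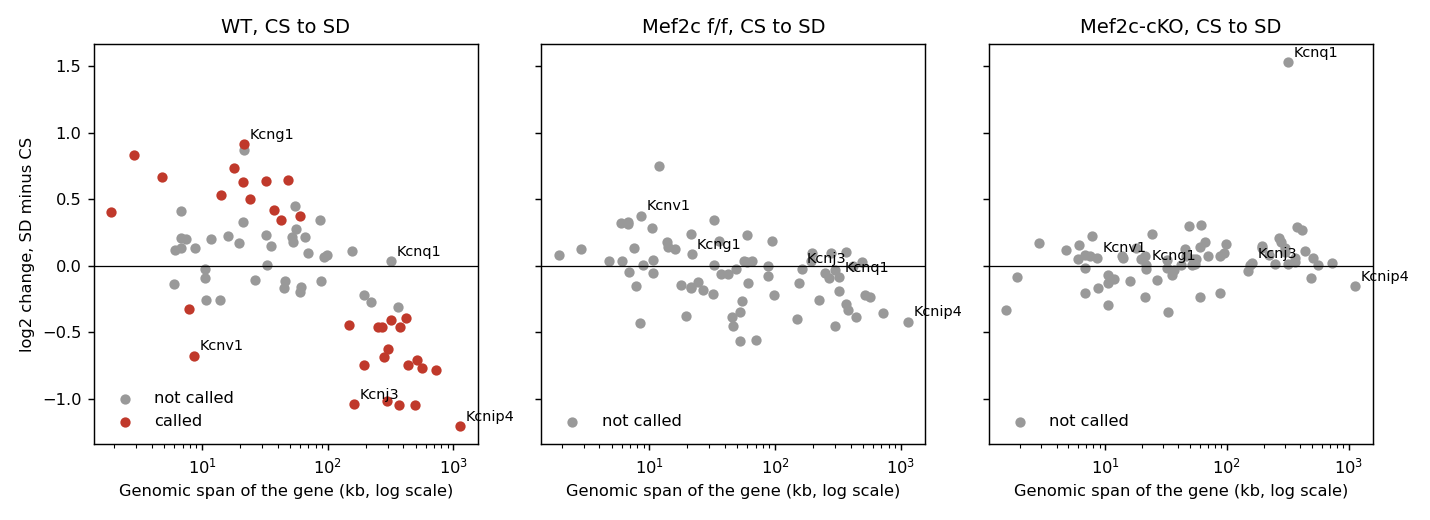
Log2 change from CS to SD (y axis) of each Kcn gene tested against its genomic span in kb (x axis, log scale), in WT, Mef2c f/f and Mef2c-cKO mice; red points were called. In WT the called genes of at least 100 kb all lie below 0 (18 genes), while in Mef2c f/f and Mef2c-cKO mice no gene was called.

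Markers of cell types were read in the same comparison, in which 24.6% of all genes were called higher and 20.5% lower. Of 6 markers of meningeal fibroblasts, such as Col1a1, 4 were called higher in SD, and their summed level was 10.9 to 47.1 rescaled CPM in CS and 55.1 to 91.1 in SD. Of 6 astrocyte markers 2 were called higher (Gfap 1.09, Aldh1l1 0.32) and 0 lower, with sums of 458 to 1015 in CS and 573 to 766 in SD. The lowest change among the 6 was −0.38. Of 6 inhibitory neuron markers 2 were called higher, and of 6 excitatory neuron markers 1 was called higher and 1 lower. No marker of these 4 lists was at 0 in a whole group. Of 6 markers of pericytes and smooth muscle 2 were called higher and 1 lower, as were those of 5 tested from other brain regions. Of 6 markers each of oligodendrocytes and microglia 1 was called higher and 1 lower, and the same held for 5 endothelial markers. The part of all these markers in the changes of the Kcn genes was not tested.

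After recovery sleep (CS to RS), 15 of 72 Kcn genes were called (20.8%), 5 higher and 10 lower, against 17.5% of all genes tested, 9.28% higher and 8.22% lower. The median log2 change was −0.01, beside 0.02 for all genes. The groups did not overlap for 3 genes (4.17%), where this held for 3.72% of all genes. The 10 that were lower all span at least 100 kb, and the share of all genes of that span called lower was 27.6%. CS to RS shares its CS libraries with CS to SD. With CPM as deposited the calls were 9 higher and 9 lower, and with quantile normalization 2 higher and 5 lower. The calls depended on single libraries, in Kcn genes and in all genes. Without WT_CS replicate 03, or without WT_RS replicate 03, 04, 05, 06 or 12, no Kcn gene was called. Over all genes these fits called 0, or 3 without WT_RS replicate 04, beside 2232 with every library. Without WT_CS replicate 02 a single Kcn gene was called (98 of all genes), and without WT_CS replicate 01 the count was 6 (223 of all genes). Without WT_RS replicate 01 it rose to 25 (3740 of all genes).

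Kcnip4 had 2699, 4301 and 6162 rescaled CPM (lowest, median, highest) in RS, all below CS, a log2 change of −0.92 (standard error 0.19, adjusted p = 0.0329 in limma). Kcnmb2 had 17.6, 24.9 and 45.4 in RS beside 35.6, 44.1 and 57.7 in CS, a change of −0.77 (standard error 0.19, adjusted p = 0.0335). Kcnt2 had 225, 347 and 570 in RS, a change of −0.67 (standard error 0.21, adjusted p = 0.0444). In Kcnmb2 and Kcnt2 the highest RS libraries reached into the CS range. Kcna5 had 6.08, 7.66 and 15.2 in RS, above every CS library, a change of 1.0 (standard error 0.20, adjusted p = 0.0329). Kcng1 had 5.85, 7.58 and 15.5, a change of 0.72, and Kcnh2 had 13.4, 18.2 and 26.1 beside 6.70, 12.3 and 16.6 in CS, a change of 0.62. Without WT_RS replicate 04, which held the highest values of Kcna5 and Kcnh2, neither was called, as was no other Kcn gene. Of all genes 3 were called in that fit.

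Between SD and RS, 1 of 72 Kcn genes was called, Kcnj2, against 0.0232% of all genes tested, and 8 had an unadjusted p of at most 0.05 (11.1%), beside 5.29% of all genes. Kcnj2 (chr11:111066164-111076821, plus strand) encodes Kir2.1, a strong inward rectifier that holds the resting potential near that of potassium. Its lowest, median and highest values were 27.3, 28.8 and 37.4 rescaled CPM in SD and 38.4, 42.9 and 49.6 in RS, a log2 change of 0.50 (standard error 0.08, adjusted p = 0.0393 in limma). The groups did not overlap, which held for 0.163% of all genes, and the CS libraries, at 32.8, 36.4 and 39.1, had a median between theirs and overlapped both. Beside CS, the log2 change was −0.26 in SD and 0.25 in RS, both under the size needed for a call. The change from SD to RS was not called with CPM as deposited (0.42), after removal of the trends on GC content and length (0.41) or with no minimum level or one of 5 CPM. The call did not hold in 11 of 14 fits that each left out 1 library, with the direction kept in 14. In Mef2c f/f mice Kcnj2 was at 40.2, 32.5, 35.8 and 36 in CS and 33.3, 36.5 and 41.9 in SD, and in Mef2c-cKO mice at 44.0, 38.0 and 26.4 in CS and 34.5, 31.4 and 31.0 in SD. These 4 groups overlapped one another in part or whole.

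The 250 bases before the annotated start of Kcnj2 are shown as the one Kcn promoter whose gene separated SD from RS (RefSeq, GRCm38.p6, chr11:111065914-111066163, plus strand, 65.6% GC). The capitals mark an E-box (CACGTG), the letters bound by clock factors of the CLOCK and BMAL1 family, 84 bases before the start.

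Kcnj2: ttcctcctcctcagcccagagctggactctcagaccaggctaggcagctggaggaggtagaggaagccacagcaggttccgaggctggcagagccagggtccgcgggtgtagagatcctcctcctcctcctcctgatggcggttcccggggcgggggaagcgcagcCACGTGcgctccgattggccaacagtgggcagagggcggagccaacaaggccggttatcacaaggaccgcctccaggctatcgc

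Promoter windows of 300 bases (250 before and 50 after a start) were found for 52 of the 74 genes, 75 windows in all. The E-box, which reads the same on both strands, was in 4 of these (5.33%), in Kcnab1, Kcnh4 and Kcnj2, beside 7.15% of all 32851 windows. The cAMP response element TGACGTCA, also its own reverse complement, was in 0 of the 75, beside 1.79% of all. A match is a run of letters and not a measured binding site.

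In Mef2c f/f mice, none of 73 Kcn genes tested was called from CS to SD by limma, against 0.0403% of all genes tested. An unadjusted p of at most 0.05 was seen in 13 (17.8%), where 17% of all genes had one. On the recovered reads edgeR called 0 (9 of all 12410 genes) and DESeq2 7 (467 of all 12410). The 7 were Kcna1, Kcnab3, Kcng3, Kcng4, Kcnip4, Kcnk12 and Kcnv1. Without Mef2c f/f CS replicate 01 limma called 4 of 73 Kcn genes and 590 of all 12433. Kcnip4 had 4802, 4349, 5463 and 4081 rescaled CPM in CS and 3456, 3054 and 3968 in SD, a log2 change of −0.42 with no overlap. Kcnab3, a beta subunit of Kv1 channels, had 31.5, 34.9, 31.5 and 36 in CS and 40.9, 45.7 and 39.9 in SD, a change of 0.33. Here too every SD library was on one side of the CS libraries, which was seen in 10 Kcn genes (13.7%) and in 17.4% of all genes. Of the 20 Kcn genes that fell in WT, 15 were below 0 in Mef2c f/f mice, with a median of −0.12, and of the 13 that rose, 7 were above 0, with a median of 0.03. For all genes called in WT the shares with the same sign were 47.1% and 45.7%; these comparisons share no library. Most of the genes that fell in WT are long, and of the 23 Kcn genes of at least 100 kb 18 were below 0 in Mef2c f/f mice, with a median of −0.13, where the median of all genes of that span was −0.09.

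In Mef2c-cKO mice none of 73 Kcn genes was called from CS to SD by limma, against 0.0234% of all genes tested, and 2 (2.74%) had an unadjusted p of at most 0.05, beside 3.05% of all genes. These were Kcnq1 and Kcnn2, which were also the 2 genes (2.74%) whose groups did not overlap, where this held for 9.05% of all genes. edgeR called 0 (3 of all 12810 genes) and DESeq2 1 (25 of all 12810). The 1 was Kcnq1 (chr7:143106362-143427042, plus strand), a delayed rectifier subunit best known from the heart and ear. Kcnq1 had 1.90, 3.52 and 4.43 rescaled CPM in CS and 9.99, 11.3 and 8.74 in SD. Every SD library was above every CS library, a log2 change of 1.53 (standard error 0.27, adjusted p = 0.549 in limma, and 0.000340 for a change of 1.61 in DESeq2). Mef2c f/f mice had 7.85, 5.33, 7.54 and 8.5 in CS and 7.94, 4.94 and 7.79 in SD, and WT libraries ran from 1.08 to 4.36, so 2 of the 3 Mef2c-cKO CS libraries lay in the WT range and the third just above it, while the Mef2c-cKO SD and Mef2c f/f libraries lay higher. The annotated gene overlaps Kcnq1ot1, a long transcript of the opposite strand, and whether the authors counted by strand is not stated, so that reads of the pair may be mixed. Of the 20 Kcn genes that fell in WT, 3 were below 0 in Mef2c-cKO mice, where the median was 0.06, and the share of all genes lower in WT that were below 0 was 49.6%. Of the 13 that rose in WT, 10 were above 0, where the share of all genes higher in WT was 51.3%. Of all Kcn genes tested here 51 of 73 lay above 0, with a median of 0.05 beside −0.005 for all genes. This count depended on the processing. It was 43 with CPM as deposited, 45 with quantile normalization and 41 after removal of the trends on GC content, length and span. Without Mef2c-cKO SD replicate 07 it was 38 of 74.

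**Figure D3:**
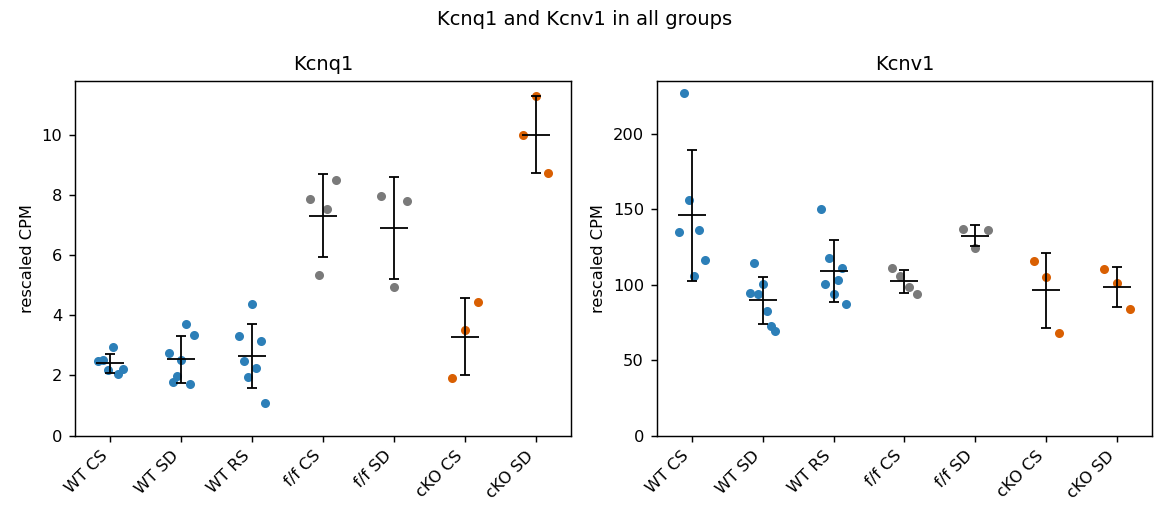
Rescaled CPM (linear axes from 0) of Kcnq1 and Kcnv1 in every library of the 7 groups; points are libraries, bars are means and whiskers 1 SD. Kcnq1 lies between 8.74 and 11.3 in Mef2c-cKO SD against 1.90 to 4.43 in Mef2c-cKO CS, and the mean of Kcnv1 is lower in SD than in CS in WT but higher in Mef2c f/f mice.

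Whether sleep loss acted differently between the genotypes was tested as an interaction. Between Mef2c-cKO and Mef2c f/f mice, 0 of 74 Kcn genes were called in limma, against 0.00778% of all genes, and 6 (8.11%) had an unadjusted p of at most 0.05, beside 7.81% of all genes. edgeR called 0 (1 of all 12860 genes) and DESeq2 1 (59 of all 12860), again Kcnq1, with a difference of 1.69 on the log2 scale. Between Mef2c f/f and WT mice, 9 of 73 Kcn genes were called (12.3%), against 15.1% of all genes, where the change was more positive in Mef2c f/f mice for 9.35% and more negative for 5.78%. In 7 of these the log2 change was more positive in Mef2c f/f mice: Kcnt2 (1.15), Kcnh7 (1.07), Kcnv1 (1.05), Kcnj3 (1.02), Kcnc2 (0.84), Kcnh5 (0.78) and Kcnip4 (0.78), each a gene that fell in WT. Kcnip4 turned to −0.14 after removal of the trends on GC content, length and span. Quantile normalization gave it −0.078, though that setting fixes values by rank and says little about a gene near the top rank. Kcnt2 had 354, 268, 346 and 252 rescaled CPM in Mef2c f/f CS and 316, 277 and 390 in Mef2c f/f SD, and Kcnh7 had 1263, 1109, 1544 and 1076 against 1193, 1173 and 1425, so that in both the Mef2c f/f groups overlapped where the WT groups did not. In Kcnk12, a K2P subunit, and the silent subunit Kcng2 it was more negative, by −0.78 and −0.66, but Kcnk12 turned to 0.10 after removal of the trends on GC content and length. Kcnv1 had 106, 136 and 227 rescaled CPM (lowest, median, highest) in WT CS and 69.5, 93.7 and 114 in WT SD, against 111, 106, 98.4 and 94.0 in Mef2c f/f CS and 137, 125 and 136 in Mef2c f/f SD. In WT the groups overlapped slightly, and in Mef2c f/f mice every SD library was above every CS library. Kcnk12 had 4.23, 5.31 and 7.64 in WT CS and 5.12, 6.78 and 7.49 in WT SD, but 7.48, 9.80, 13.2 and 9.32 in Mef2c f/f CS and 6.74, 6.51 and 6.02 in Mef2c f/f SD. Kcng2 had 2.31, 2.67 and 3.73 in WT CS and 2.42, 3.12 and 3.55 in WT SD, but 3.0, 3.65, 4.51 and 3.99 in Mef2c f/f CS and 2.05, 3.07 and 2.14 in Mef2c f/f SD. The WT groups of both genes overlapped, and of the Mef2c f/f groups only those of Kcng2 did. Over the 73 Kcn genes the interaction had a Spearman rho of −0.744 with GC content, and over all genes −0.756. After removal of the trends on GC content and length, 3 of the 9 Kcn calls held, 5 were lost and 1 turned. Calls over all genes fell from 1983 of 13106 to 191 of 12631. With CPM as deposited the split of Kcn genes was 7 more positive and 11 more negative, and 507 and 2919 over all genes. Without Mef2c f/f SD replicate 03 none was called, without replicate 01 of that group 2, and without Mef2c f/f CS replicate 04 or 02 the count was 3 or 5. It was 17 without WT_CS replicate 06 and 16 without WT_CS replicate 05. Calls over all genes moved too, from 1983 to 23 without Mef2c f/f SD replicate 03 and to 92 without replicate 01 of that group. They were 172 or 274 without Mef2c f/f CS replicate 04 or 02, and 3300 or 3143 without WT_CS replicate 06 or 05. WT libraries also listed fewer of their reads in the table than the others, so the genotype and the handling of the files cannot be told apart.

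Between the genotypes, most of the Kcn genes called were lower in Mef2c-cKO mice. In CS, 17 of 74 were called (23.0%), 2 higher and 15 lower, against 7.67% of all genes tested, 3.17% higher and 4.5% lower. In SD, 29 of 73 were called (39.7%), 8 higher and 21 lower, against 15.1% of all genes, 9.1% higher and 5.99% lower. Kcne1l, counted as higher in both, reached 1 CPM in every library of the Mef2c-cKO groups alone and could be tested only for that reason. Without genes that passed through 1 group, 16 of 72 were called in CS (22.2%) and 28 of 72 in SD (38.9%). The median log2 difference of the Kcn genes was −0.21 in CS and −0.11 in SD, beside 0.03 and 0.01 for all genes. The groups did not overlap for 27 genes in CS (36.5%) and 39 in SD (53.4%), where this held for 26.9% and 40.3% of all genes. With CPM as deposited the calls were 4 higher and 12 lower in CS and 14 higher and 18 lower in SD. Without 1 library the count in CS fell to 3 (Mef2c f/f CS replicate 02), 4 (Mef2c-cKO CS replicate 07), 8 (Mef2c f/f CS replicate 03) and 11 (Mef2c f/f CS replicate 04 or Mef2c-cKO CS replicate 05), and was 12 without Mef2c-cKO CS replicate 08, the library rich in astrocyte markers. In SD it was 18 without Mef2c f/f SD replicate 01 and 19 without replicate 03. Calls over all genes fell as well. In CS they went from 973 to 175 without Mef2c f/f CS replicate 02 and to 171 without Mef2c-cKO CS replicate 07. In SD they went from 1927 to 822 without Mef2c f/f SD replicate 01 and to 948 without replicate 03.

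Both comparisons use different libraries. Over the 73 Kcn genes tested in both, the differences had a Spearman rho of 0.704 (0.652 over all 12595 genes), and 13 were called the same way in both, which is 76.5% of those called in CS and 44.8% of those called in SD; for all genes the shares were 51.6% and 26.8%. The genes lower in both included Kcna2, Kcnc1, Kcnc2, Kcnh5, Kcnip4, Kcnj9, Kcnk4, Kcnma1, Kcnq3 and Kcnq5, and Kcnh1 was higher in both. The 13 include Kcne1l, without which they are 12. Some of these calls rested on single libraries in CS: with 1 library left out in turn, Kcnq5 was called in 0 of 7 fits, Kcna2 in 1 and Kcnip4 in 2, and in SD Kcnip4 was called in 2 of 6. None was called in opposite directions. Kcnq1, whose values are given above, was called lower in CS (−1.09, adjusted p = 0.0377 in limma), where the groups did not overlap, but gave 0.53 in SD (adjusted p = 0.0789). The call in CS held in 1 of 7 fits that each left out 1 library, with changes from −1.31 to −0.79.

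**Figure D4:**
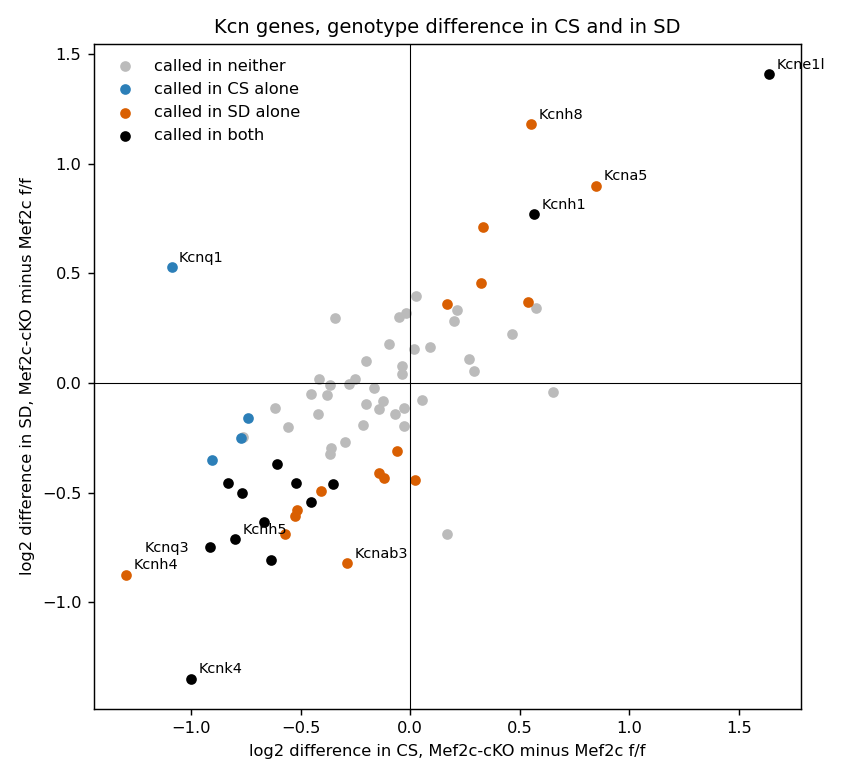
Log2 difference between Mef2c-cKO and Mef2c f/f mice for 73 Kcn genes, in CS (x axis) and in SD (y axis); colours show in which comparison a gene was called. Most called genes lie in the lower left, 11 of them called lower in both, Kcnk4 reaches −1.0 and −1.35, and Kcnq1 lies below 0 in CS and above 0 in SD.

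Kcnk4 (TRAAK; chr19:6923966-6934515, minus strand), a leak channel opened by membrane stretch and heat, had the largest fall in SD. It was at 11.7, 9.46, 8.41 and 9.52 rescaled CPM in Mef2c f/f CS and at 5.52, 5.17 and 3.40 in Mef2c-cKO CS, a log2 difference of −1.0 (standard error 0.18, adjusted p = 0.0171 in limma). In SD it was at 11.4, 11.5 and 12.9 against 4.54, 3.81 and 4.82, a difference of −1.35 (standard error 0.12, adjusted p = 0.000406). No Mef2c-cKO library reached any Mef2c f/f library. WT libraries ran from 6.57 to 15.2 rescaled CPM. Its gene overlaps Catsperz on the same strand, so a share of its reads may belong to the latter.

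The M-current subunit Kcnq3 (chr15:65986387-66286642, minus strand) was at 744, 849, 957 and 862 in Mef2c f/f CS and 449, 480 and 424 in Mef2c-cKO CS (log2 difference −0.92, standard error 0.11, adjusted p = 0.00407 in limma). In SD it was at 782, 839 and 870 against 515, 426 and 549 (−0.75, standard error 0.10, adjusted p = 0.00329). Its partner Kcnq5 was lower by −0.61 in CS and −0.37 in SD. Kcnq3 was separated without overlap in both states, and was called when any single library was left out, which in CS held for Kcnc2 and Kcnh5 as well.

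The Kv3 genes Kcnc1 and Kcnc2, whose channels allow fast firing, gave differences of −0.52 (CS) and −0.46 (SD) for Kcnc1 and of −0.67 and −0.63 for Kcnc2. Kcnc2 was at 311, 317, 358 and 295 rescaled CPM in Mef2c f/f CS against 192, 205 and 205 in Mef2c-cKO CS. In SD it was at 334, 321 and 368 against 244, 194 and 224, again without overlap. Kcna2 (Kv1.2) differed by −0.35 and −0.46, and Kcna1 (Kv1.1) by −0.41 in SD. Kcnab3 was at 40.9, 45.7 and 39.9 in Mef2c f/f SD and at 28.4, 19.6 and 23.6 in Mef2c-cKO SD, a difference of −0.82 (standard error 0.13, adjusted p = 0.00546 in limma). The groups were apart in SD, while in CS they gave −0.29 with an overlap. Kcnab3 lies beside its antisense gene Kcnab3os.

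These genes were read beside the markers of inhibitory neurons, since Kv3 channels are known from fast-spiking cells that express Pvalb. Pvalb was lower by −1.31 in SD (called) and −0.71 in CS (not called), while Gad1 (0.48), Gad2 (0.80) and Slc32a1 (0.39) were called higher in SD. The summed level of the 6 markers was 532 to 608 rescaled CPM in Mef2c f/f SD and 706 to 824 in Mef2c-cKO SD. Of the 6 excitatory markers 2 were called lower in SD, among them Nrgn (−0.66), and of 6 microglia markers 4 were called higher, with sums of 152 to 163 in Mef2c f/f SD and 193 to 210 in Mef2c-cKO SD. Of 6 astrocyte markers 2 were called higher in SD (Gfap 1.91, Aqp4 0.70) and 0 lower. The median of the 6 was 0.11 and the lowest −0.21, and their sums were 531 to 573 against 686 to 918. Of 6 markers of other brain regions 2 were called higher in SD, Eomes (3.17) and Kl (1.08). Single markers of meningeal fibroblasts, endothelial cells and pericytes were called higher in SD and 1 of oligodendrocytes lower. In CS 3 of 6 meningeal markers were called higher, Col1a1 (1.20), Col3a1 (1.09) and Col1a2 (0.50), with sums of 30.8 to 36 in Mef2c f/f mice and 45 to 51.3 in Mef2c-cKO mice. Aqp4 (1.33), Mog (0.48) and Gad2 (0.59) were also called higher in CS and the endothelial Flt1 lower (−0.50), and the median astrocyte sum was 514 against 668, with 2179 in Mef2c-cKO CS replicate 08. No marker of these lists was at 0 in a group, and their part in the Kcn differences was not tested.

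The ether-a-go-go family moved in both directions. Kcnh5 was at 194, 187, 223 and 184 in Mef2c f/f CS and 128, 108 and 104 in Mef2c-cKO CS (−0.80), and at 204, 200 and 226 against 127, 120 and 137 in SD (−0.71). Kcnh4 was at 10.7, 13.3 and 9.89 against 5.46, 5.71 and 6.54 in SD (−0.87, adjusted p = 0.00449 in limma), and at 13.9, 15.9, 11.9 and 17.6 against 9.67, 7.27 and 2.49 in CS, a gap of −1.30 that did not pass the test. Kcnh7 was lower in SD (−0.69), but was called in 3 of 6 fits that each left out 1 library. Both Kcnh5 and Kcnh4 were without overlap in both states. In contrast Kcnh1 (EAG1) was at 255, 281, 329 and 318 in Mef2c f/f CS and 474, 457 and 382 in Mef2c-cKO CS (0.57, adjusted p = 0.0281), and at 247, 266 and 262 against 558, 398 and 385 in SD (0.77, adjusted p = 0.00793). Kcnh8 was at 2.63, 3.31 and 3.79 against 7.11, 7.28 and 9.56 in SD (1.18, adjusted p = 0.00306), and in CS gave 0.55 with overlap. Kcnh1 lies opposite to part of Hhat and Kcnh7 to part of Gca in the annotation.

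Kcnk1 was lower in SD (−0.31), at 79.7, 90.5 and 73.0 in Mef2c f/f mice against 64.5, 66.2 and 64.4, without overlap. It was called in 2 of 6 fits that each left out 1 library. Other genes were higher in Mef2c-cKO mice. Kcne1l, an X-linked auxiliary subunit, was at 0.966, 0.963, 0.876 and 1.54 in Mef2c f/f CS and 2.56, 3.77 and 8.34 in Mef2c-cKO CS, and at 0.988, 1.17 and 0.755 against 3.03, 4.36 and 2.89 in SD. It could be tested only where it was high, so its values are a description, and the value of 8.34 came from Mef2c-cKO CS replicate 08. Kcna5 was at 2.11, 2.33 and 1.92 against 3.62, 5.22 and 4.43 in SD (0.90, adjusted p = 0.0073), with no overlap. Kcnk13 (0.71), a leak channel of microglia among other cells, Kcnn3 (SK3, 0.46), Kcna3 (0.37) and Kcnh2 (0.36) were also called higher in SD. Kcna3 is known from microglia as well. With 1 library left out in turn, Kcna3 and Kcnh2 were each called in 2 of 6 fits.

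Kcnma1 and Kcnmb2 were lower in CS, by −0.83 and −0.91. Kcnma1 was at 1112, 1340, 1698 and 1347 in Mef2c f/f CS and 684, 800 and 810 in Mef2c-cKO CS, and at 1044, 1033 and 1116 against 794, 674 and 868 in SD (−0.46). In Kcnmb2 the CS call held in 2 of 7 fits that each left out 1 library, and the SD difference was not called. Kcnip4, at 4802, 4349, 5463 and 4081 in Mef2c f/f CS, was at 2357, 3107 and 2783 in Mef2c-cKO CS (−0.77, adjusted p = 0.0287 in limma), and at 2571, 2169 and 2656 in Mef2c-cKO SD (−0.50 from Mef2c f/f SD). Of the Kcn genes lower in Mef2c-cKO mice 8 of 15 in CS and 8 of 21 in SD span at least 100 kb. Of all annotated genes called lower, 294 in CS and 306 in SD span at least 100 kb, and 275 and 458 span less. After removal of the trends on GC content, length and span 16 Kcn genes were called in CS (2 higher, 14 lower). In SD 30 were called (9 higher, 21 lower). Over all genes these fits called 988 of 12658 and 1768 of 12751.

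**Figure D5:**
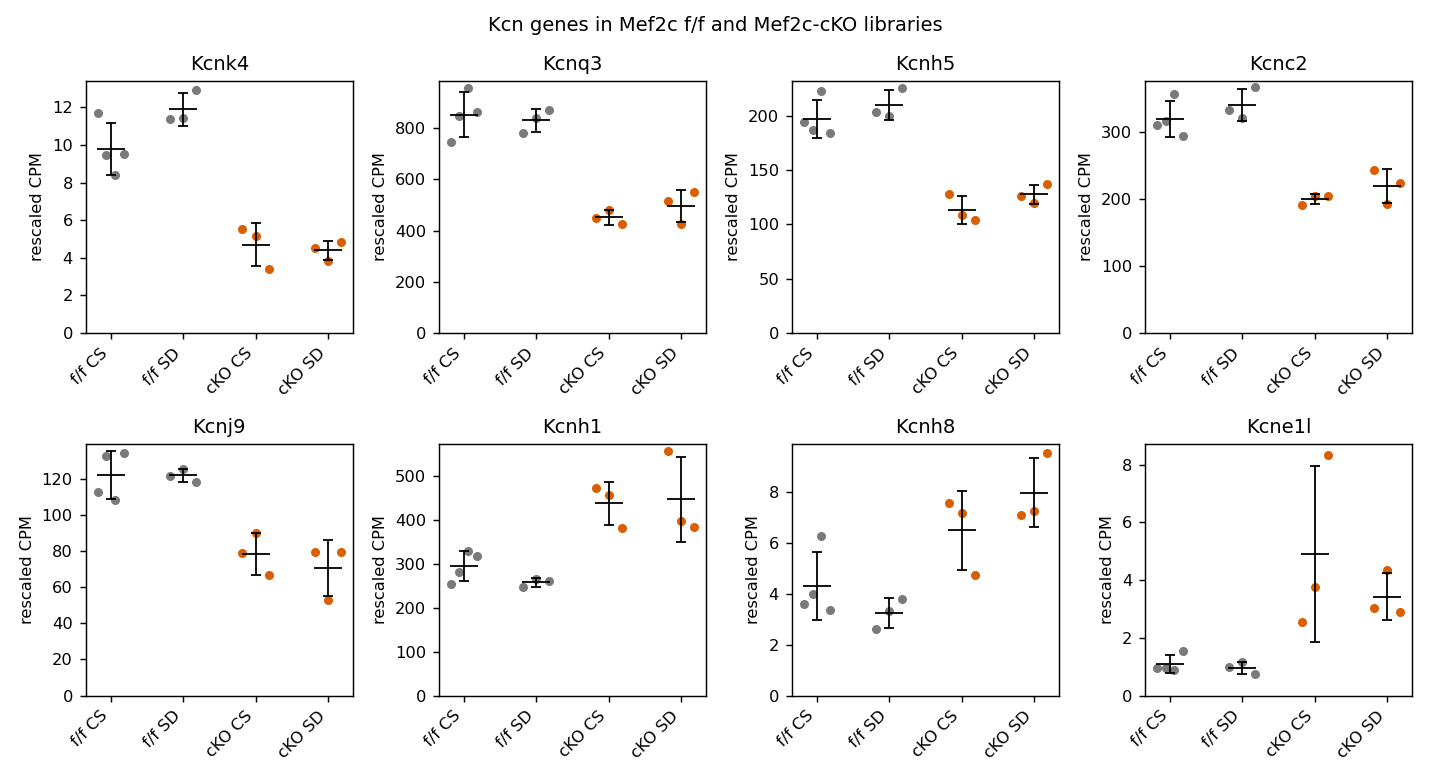
Rescaled CPM (linear axes from 0) of 8 Kcn genes in every Mef2c f/f (grey) and Mef2c-cKO (orange) library in CS and SD; points are libraries, bars are means and whiskers 1 SD. Kcnk4, Kcnq3, Kcnh5, Kcnc2 and Kcnj9 are lower in every Mef2c-cKO library, and Kcnh1 and Kcne1l are higher in every one, with Kcne1l at 8.34 in 1 library.

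Kcnj9 (GIRK3), a subunit of the G protein-gated inward rectifiers, and Kcnj16 (Kir5.1), a pH-sensitive inward rectifier subunit, had a MEF2 motif in the window before their start. Kcnj9 was at 113, 132, 108 and 134 rescaled CPM in Mef2c f/f CS and 78.6, 89.8 and 66.8 in Mef2c-cKO CS (−0.64, adjusted p = 0.0212 in limma), and at 121, 125 and 118 against 79.2, 52.8 and 79.4 in SD (−0.81, adjusted p = 0.00931). Kcnj16 was at 16.6, 18.5 and 19.1 against 13.6, 14.7 and 11.3 in SD (−0.44, adjusted p = 0.0311 in limma). This call of Kcnj16 held in 1 of 6 fits that each left out 1 library. Both genes were apart without overlap in SD, and Kcnj9 in CS as well, while Kcnj16 gave 0.022 in CS with overlap. The motif, searched by the consensus of the MEF2 family on both strands (it reads the same on both), was in 2 of the 75 Kcn windows (2.67%) and in 3.19% of all 32851 windows, a similar share. The 250 bases before the starts of both genes, and of Kcnk4, which had the largest fall in SD and holds none of the 3 motifs, are given from RefSeq (GRCm38.p6), with the motif in capitals. They lie at chr1:172329323-172329572 (minus strand, 52% GC, motif 118 bases before the start), chr11:110967783-110968032 (plus strand, 42.8% GC, motif 19 bases before the start, the first of 4 annotated starts) and chr19:6934516-6934765 (minus strand, 54.8% GC).

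Kcnj9: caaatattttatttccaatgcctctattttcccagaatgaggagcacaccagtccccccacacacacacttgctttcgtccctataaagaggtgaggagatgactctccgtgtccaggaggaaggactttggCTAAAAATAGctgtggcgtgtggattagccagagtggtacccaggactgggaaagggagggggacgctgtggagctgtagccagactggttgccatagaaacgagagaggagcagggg
Kcnj16: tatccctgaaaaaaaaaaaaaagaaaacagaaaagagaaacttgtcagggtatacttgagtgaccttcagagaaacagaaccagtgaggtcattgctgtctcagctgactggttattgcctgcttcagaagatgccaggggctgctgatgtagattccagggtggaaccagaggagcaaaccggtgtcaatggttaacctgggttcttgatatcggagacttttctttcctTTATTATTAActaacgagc
Kcnk4: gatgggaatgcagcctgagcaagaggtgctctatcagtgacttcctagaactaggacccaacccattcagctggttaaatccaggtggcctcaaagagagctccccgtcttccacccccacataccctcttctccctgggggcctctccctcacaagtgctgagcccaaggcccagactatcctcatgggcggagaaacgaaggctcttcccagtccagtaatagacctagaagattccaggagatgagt

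Genes that act with potassium channels but are not Kcn genes were read from 2 lists. Of 16 partner proteins, 15 were tested. From CS to SD in WT, 2 rose and 6 fell, where 24.6% of all genes were called higher and 20.5% lower. Those that fell included Dpp10 (−0.91), an auxiliary protein of A-type channels, and Cntnap2 (−0.76), which clusters Kv1 channels along axons. In Mef2c-cKO mice Dpp10 was lower in CS (−0.64) and SD (−0.54), as was Adam23 (−0.39 and −0.30), and Lrrc38, a gamma subunit of BK channels, was lower in SD (−0.80). In each state 3 of the 15 were lower and 0 higher, beside 4.5% of all genes lower in CS and 5.99% in SD. Of 13 genes of potassium transport, which encode the sodium pump and the chloride cotransporters, 7 rose and 0 fell from CS to SD in WT, beside the same 24.6% and 20.5% of all genes. Those that rose included Fxyd6 (0.57) and Fxyd1 (0.57), regulators of the sodium pump, and Slc12a5 (0.45), the chloride extruder of neurons. In Mef2c-cKO SD mice 2 were higher, Slc12a7 (0.61) and Fxyd6 (0.51), and 1 was lower, beside 9.1% higher and 5.99% lower of all genes. In CS none of the 13 was called.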

How the data were processed

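Frontal cortex RNA of 33 mice was analysed. The authors aligned trimmed reads to mm10 with STAR, counted unique reads per gene with HTSeq and deposited CPM made with edgeR. The strand setting and annotation release of the counting are not given in the sources used here. With the smallest value above 0 in a library as 1 read, 711645 of 711645 deposited CPM values (100.0%) lay within 0.01 of a whole read. Each library was divided by its median ratio to the geometric mean of all libraries over 11570 genes, 0.5 was added and log2 taken, and the compared groups alone were fitted with limma 3.58.1 (R 4.3.3; eBayes with trend) after a minimum of 1 CPM in all replicates of a group; interactions needed the adjusted p alone. Fold changes on this scale understate those of low genes. The study's own test was DESeq2. Alternatives were other pseudocounts, CPM as deposited, quantile normalization, other filters, edgeR 4.0.16, DESeq2 1.42.0, spline trends (5 degrees of freedom for GC content, 4 for length; 4 for span, added after seeing the data), one fit of all groups, the replicate block and each library left out. GC content, span and overlaps came from GENCODE M21, promoters from RefSeq. The procedure was tested on simulated data.

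The Kcn genes and lists were chosen with earlier results of these data known. Values per library are given for the 3 largest called rises and falls of each comparison, all calls of comparisons with 6 or fewer, the highest gene of each family, Kcnip4 and Kcnj2; other genes with such values were chosen after their values were seen. Some genes counted in the totals are not reported here by name.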

Additional observations from a re-analysis of the deposited data

Results flagged for a closer look

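Of 96 groups of 4 to 10 libraries, over 24 Kcn genes, 11 held a library far from the others by Dixon's criterion, which chance gives in about 1 of 20 groups. In 5 of these the library was WT_CS replicate 02, always as the highest, with 3353 rescaled CPM of Kcnd2, 3574 of Kcnh7, 10870 of Kcnip4, 1030 of Kcnj3 and 821 of Kcnt2. WT_RS replicate 04 was high for Kcna5 (15.2) and Kcnh2 (26.1), WT_RS replicate 05 for Kcng1 (15.5) and WT_RS replicate 01 for Kcnt2 (570.1). WT_CS replicate 05 was high for Kcnk1 (93.8) and Mef2c f/f CS replicate 04 for Kcne1l (1.54).

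The change from CS to SD differed between Mef2c f/f and WT mice by the interaction test in limma for Kcnt2 (1.15 on the log2 scale), Kcnh7 (1.07), Kcnv1 (1.05), Kcnj3 (1.02), Kcnc2 (0.84), Kcnh5 (0.78), Kcnip4 (0.78), Kcng2 (−0.66) and Kcnk12 (−0.78). In all 7 that were more positive in Mef2c f/f mice WT changed downward. After removal of the trends on GC content and length 3 of the calls held, 5 were lost and 1 turned.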

How the results depend on the processing

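No Kcn gene called in the report changed direction in any fit that left out 1 library, nor with another pseudocount or filter, edgeR, DESeq2, or CPM as deposited. Counts of called Kcn genes did move, and those over all genes moved in many of the same fits. From CS to SD in WT (33) they were 20 after removal of trends on GC content and length and 10 with span added (all genes 5826, 2700 and 1834). From CS to RS (15) they were 7 with quantile normalization, 6 with no filter, 7 after GC content and length, 26 in one fit of all WT groups and 1 with span added. From SD to RS (1) the count was 0 with CPM as deposited, no filter, a minimum of 5 CPM, or GC content and length removed. From CS to SD in Mef2c f/f mice (0) it was 7 with DESeq2, 2 after GC content and length and 3 with span added, and in Mef2c-cKO mice (0) and in the difference between both genotypes (0) it was 1 with DESeq2. Between the genotypes it was 10 with no filter in CS (17) and 17 in one fit of all Mef2c f/f and Mef2c-cKO groups in SD (29). The difference between Mef2c f/f and WT (9) gave 18 with CPM as deposited, 5 after GC content and length, 14 in one fit of all groups and 5 with span added. The causes were not tested. With each library left out in turn the counts ran from 27 to 37, 0 to 25, 0 to 1, 0 to 4, 0 to 0, 3 to 15, 18 to 36, 0 to 0 and 0 to 17, in the order CS to SD, CS to RS and SD to RS in WT, CS to SD in Mef2c f/f and in Mef2c-cKO mice, genotype in CS and in SD, Mef2c-cKO minus Mef2c f/f and Mef2c f/f minus WT.

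Directions turned in 14 cases. After removal of GC content and length they were Kcna3 (−0.14) and Kcnk3 (−0.043) from CS to SD in WT and Kcnk12 (0.10) in Mef2c f/f minus WT. With span added they were Kcna3 (−0.38), Kcnab1 (0.14), Kcnb2 (0.075), Kcnc1 (−0.0068) and Kcnh8 (0.12) from CS to SD, with 1 gene not reported here, Kcna3 (−0.15), Kcnb2 (0.0035) and Kcnt2 (0.021) from CS to RS, and Kcnip4 (−0.14) in Mef2c f/f minus WT, where quantile normalization gave Kcnip4 −0.078.

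The replicate numbers were not taken to pair the mice, since libraries of the same number had correlated deviations of −0.716 to 0.623. With the replicate block 4 Kcn genes were called from CS to SD in WT, 23 from CS to RS, 0 from SD to RS and 0 in Mef2c f/f minus WT. Mef2c f/f and Mef2c-cKO libraries share no numbers. Groups of 3 or 4 libraries limit what the genotype comparisons could detect.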
